A study of Mus musculus with 2 samples.

Results

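Proteasome and COP9 signalosome genes were examined in H3K27ac CUT&Tag profiles of mouse colonic macrophages. The group holds 62 of 21887 protein-coding genes on the autosomes and sex chromosomes. Its members were chosen by symbol, as all genes named Psma to Psmg or Cops followed by a digit, together with Gps1 and Sem1. The group was proposed with scores of these libraries in view, those of Cops5 and Sem1 among them, so counts and scores below are descriptions and no test is attached to them. One library came from Tle4cKO mice, which carry a floxed Tle4 gene and Lyz2-Cre (Tle4f/f Lyz2-Cre) and so lose this corepressor gene in cells that express lysozyme 2. The other library came from WT mice, which carry Lyz2-Cre with no floxed Tle4 recorded. All mice were C57BL/6 males of 11.1 weeks. Macrophages were sorted by CD64 staining, low Ly6C and absence of Siglec-F, and those of 4 mice were pooled for the single library of each genotype. With n = 1 library per genotype there is no replicate error.

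The proteasome degrades proteins tagged with ubiquitin. Its barrel-shaped core particle is built of alpha and beta rings, of which some beta subunits are proteases, and the regulatory particle at its ends has a base of ATPases that unfold the substrate and a lid that removes ubiquitin. In macrophages, which present antigen, interferon can replace the proteases with immunoproteasome subunits. The COP9 signalosome is a related complex, with subunits that resemble those of the lid. It removes the ubiquitin-like protein NEDD8 from cullins, the scaffolds of a large class of ubiquitin ligases. Acetylation of lysine 27 of histone H3 (H3K27ac) marks active promoters and enhancers. CUT&Tag locates it with an antibody that directs a transposase to the marked chromatin.

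Each library was given as a list of peak summits, single positions with a score that was read as a −log10 p- or q-value. The Tle4cKO list held 2350 summits and the WT list 10474, and read depth was unknown. Where a list has no summit, a peak was not called, and the site may still carry signal. The libraries are pools, so fewer cells with a mark and less of it per cell cannot be told apart. Scores rank summits within a list and are not a measure of change between the lists. The targeted gene, Tle4, had 0 summits of either library within 10 kb, and H3K27ac summits do not check its deletion. Of 16 macrophage markers, 0 in Tle4cKO and 4 in WT (Fcgr1, Cd68, Cx3cr1 and Cd14) had a summit at a gene end, and Itgam, Lyz2, Cd163 and the complement genes C1qa, C1qb and C1qc had none of either library within 10 kb. Of all protein-coding genes, 6.19% in Tle4cKO and 22.6% in WT had a gene-end summit. Within 10 kb, 1 of the 16 (Ptprc, a gene of leukocytes in general) had a Tle4cKO summit and 9 a WT summit, where 11.6% and 39.2% of all genes did. Markers of other cell types had 0 gene-end summits in Tle4cKO. In WT they had them at 1 of 6 T cell genes (Cd4) and 1 of 6 B and plasma cell genes (Cd79b), and at 0 of 6 epithelial, 0 of 6 neutrophil and eosinophil and 0 of 6 fibroblast and muscle genes. Within 10 kb, a Tle4cKO summit was found at 1 of 6 B and plasma cell genes (Jchain) and at no other of these genes. WT summits lay within 10 kb of 3 of 6 B and plasma cell, 2 of 6 T cell and 1 of 6 epithelial genes. The part of other cell types in the results below was not tested.

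Most of these genes had a summit within 1 kb of an outer gene end in WT, and a smaller share had one in Tle4cKO. In Tle4cKO 22 of the 62 genes did (35.5%, exact 95% interval 23.7 to 48.7%), where 6.19% of all protein-coding genes were called. In WT 42 did (67.7%, 54.7 to 79.1%), where 22.6% of all genes were called. Both libraries marked 20 members (32.3%; 5.6% of all genes), WT alone 22 (35.5%; 17% of all genes) and Tle4cKO alone 2 (3.23%; 0.594% of all genes). The intervals cover counting error over genes only. When the WT list was cut to its highest scores, as many as the Tle4cKO list holds, 22 members were marked in Tle4cKO and 23 in WT, 13 of them in both, 9 in Tle4cKO alone and 10 in WT alone. The median of the highest gene-end score was 4.37 for the members marked in Tle4cKO and 4.15 for all genes marked there. In WT it was 6.71 for the members and 5.19 for all marked genes.

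**Figure D1:**
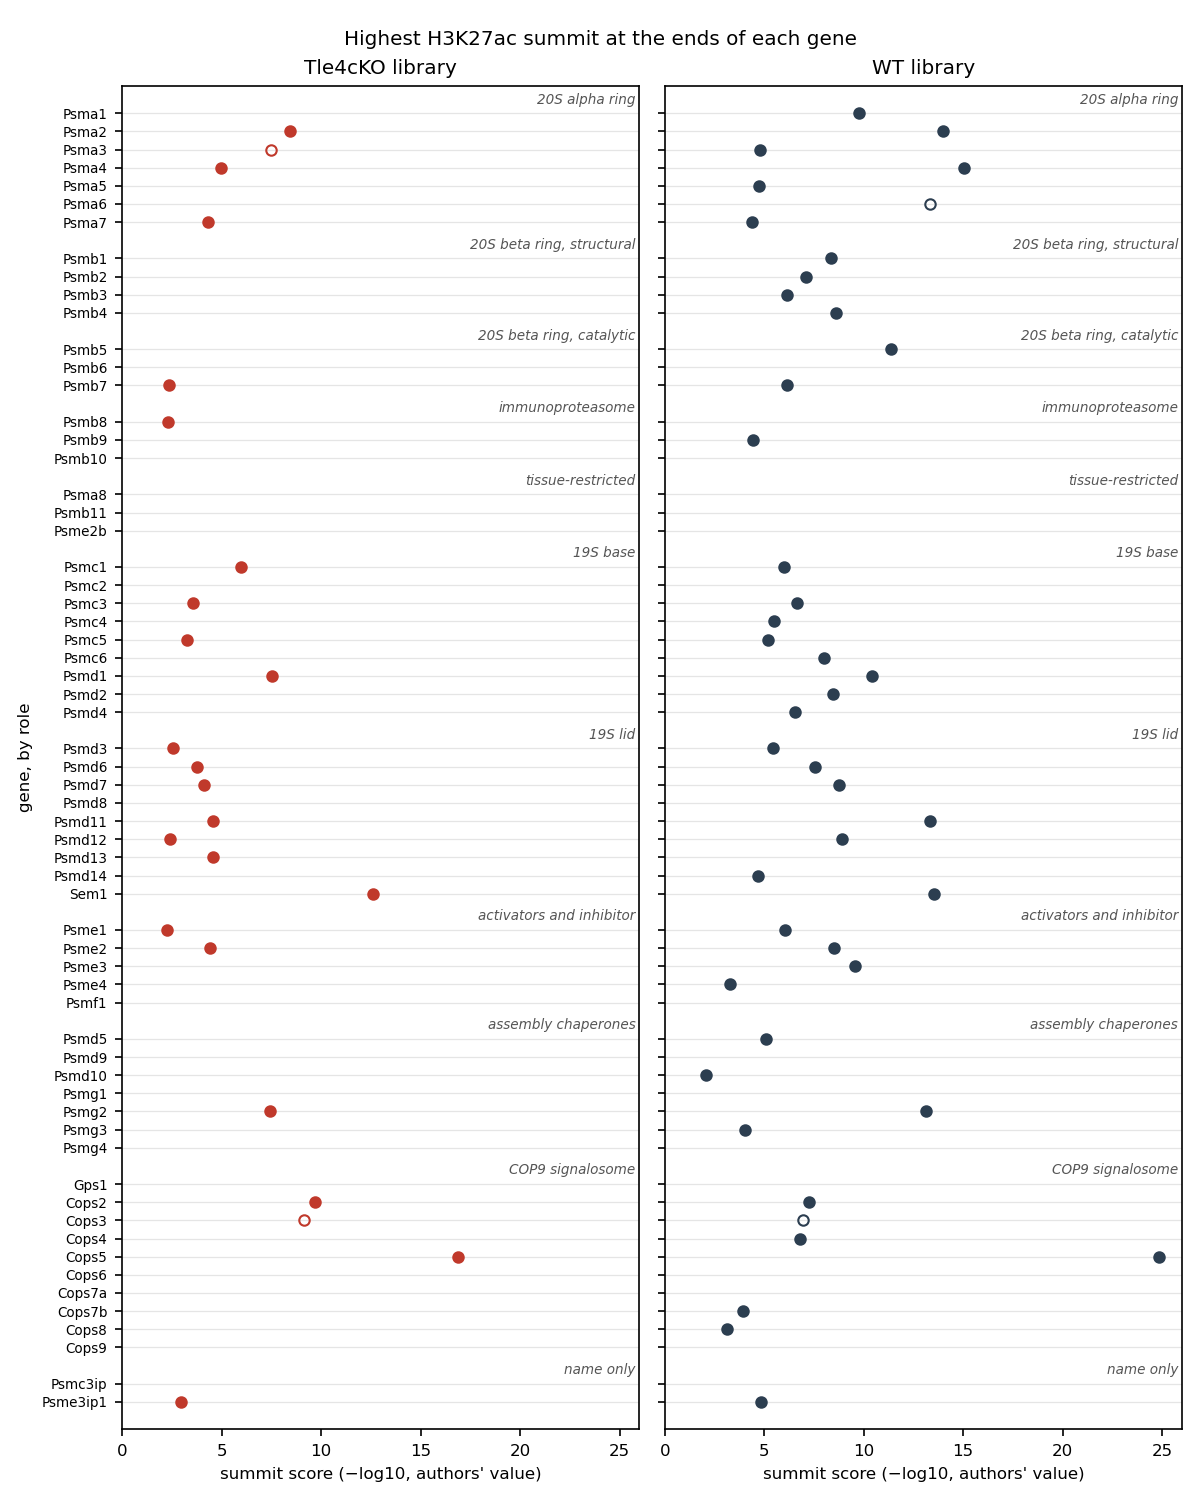
Highest summit score (−log10, the authors' value) within 1 kb of an outer end of each of the 62 genes, ordered by role, with Tle4cKO on the left and WT on the right. Filled points are gene-end summits, open points are summits within 1 kb of a transcription start for genes with no gene-end summit in that library, and a row with no point had neither; Cops5 has the highest score in both panels, 16.9 and 24.8.

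Within the gene or 10 kb of it, 24 members had a Tle4cKO summit (38.7%; 11.6% of all genes) and 50 a WT summit (80.6%; 39.2% of all genes). With the whole WT list, all 24 members with a Tle4cKO summit also had a WT summit there. They make up 38.7% of the group, against 10.8% of all genes with both. Over all genes, 2366 of the 2548 with a Tle4cKO summit had a WT summit too. At 21 of the 24 members, a Tle4cKO and a WT summit lay within 500 bp of each other. WT alone was found at 26 members (41.9%; 28.4% of all genes), and Tle4cKO alone at 0 members (upper interval limit 5.78%; 0.832% of all genes). These counts depend on the longer WT list: with the WT list shortened as above, 24 members had a Tle4cKO summit and 29 a WT summit, 16 had both, 8 had Tle4cKO alone and 13 had WT alone. The windows set the calls of a few genes. A Tle4cKO summit 921 bp from the end of Psmb8 lay just inside the 1 kb limit, and the WT summit beside it, 1491 bp from that end, lay just outside. A WT summit 9241 bp from Psmc3ip was the farthest that the 10 kb limit took in as a gene's nearest, while a Tle4cKO summit 10065 bp from Psma1 and a WT summit 12345 bp from Psmb6 were just beyond it.

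Outer gene ends are not always where transcription starts, so summits were also placed against the starts in the RefSeq promoter table (GRCm38.p6, the assembly of mm10), which held 53 of the 62 genes (all but Cops5, Psma8, Psmb1, Psmb2, Psmb7, Psmc3, Psmd3, Psmd7 and Psmg2). Within 1 kb of a start, 17 of the 53 had a Tle4cKO summit (32.1%; 6.92% of the 17492 genes in the table) and 36 a WT summit (67.9%; 25% of the genes in the table). Both were found at 16 (30.2%; 6.36%), WT alone at 20 (37.7%; 18.6%) and Tle4cKO alone at 1, Psmd13 (1.89%; 0.566%). Of the gene-end summits of these genes, 15 of 16 in Tle4cKO and 34 of 35 in WT lay within 1 kb of a start. The exceptions were the Tle4cKO summit beyond the far end of Psmb8 and a WT summit at position -5865 bp from the Psma3 start.

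Relative to the start, WT summits lay mostly downstream, both for the members and over all genes. In Tle4cKO 9 of 17 summits (52.9%) lay downstream of the start, with a median position 117 bp downstream and a range of -593 to 497 bp. In WT 27 of 37 (73%) did, with a median 165 bp downstream and a range of -346 to 637 bp. Over all genes the shares were 62.1% of 1219 Tle4cKO summits and 61.6% of 4564 WT summits, with medians 110 bp and 111 bp downstream. Among the 16 members with both, the Tle4cKO summit lay upstream of the WT summit at 10 and downstream of it at 6, with a median offset of -69 bp. Over all 1112 genes with both, 47.1% had it upstream and the median offset was 4.5 bp. At Psma7, an alpha ring subunit, the Tle4cKO summit lay 174 bp upstream of the start and the WT summit 221 bp downstream. At Psmd6, a lid subunit, the order was the other way, with the Tle4cKO summit 497 bp and the WT summit 160 bp downstream.

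**Figure D2:**
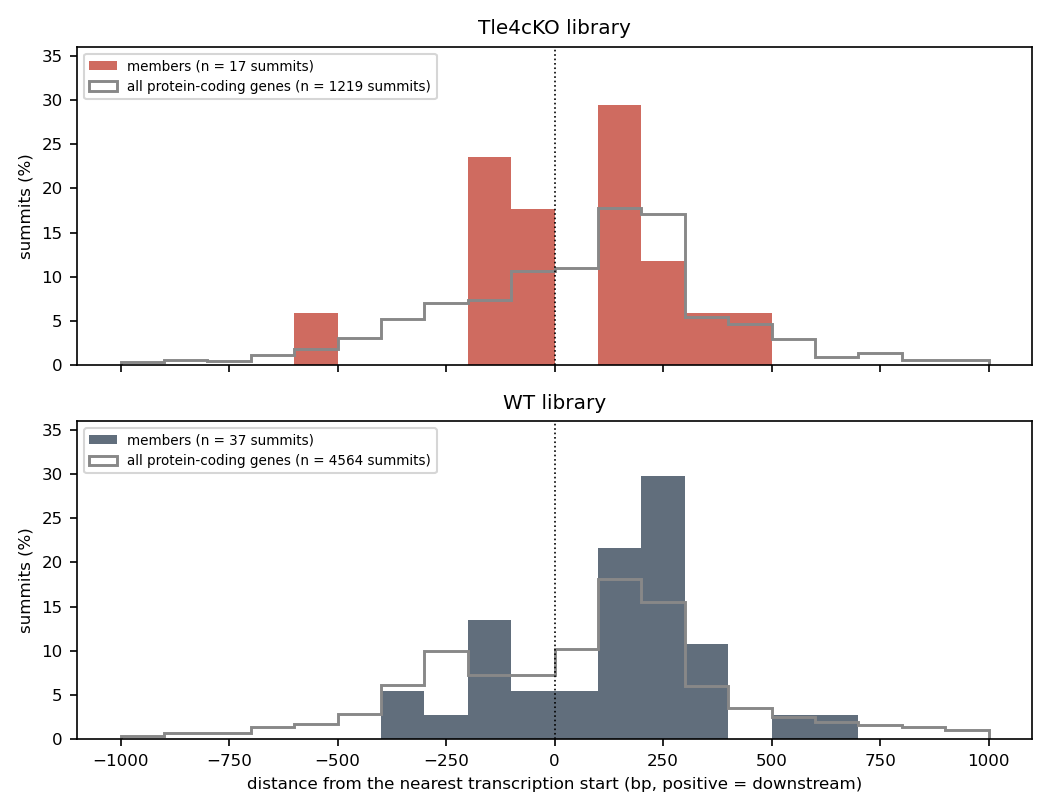
Position of summits relative to the nearest transcription start (bp, positive is downstream) in Tle4cKO above and WT below, as a share of summits per bin of 100 bp. Filled bars are the members (17 and 37 summits) and grey outlines all protein-coding genes (1219 and 4564 summits). Of the WT summits, 67.6% for the members and 49.9% over all genes lay 0 to 400 bp downstream of the start.

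The core of ETS factor sites, a feature that the choice by symbol did not use, was found in the promoters of 29 of the 53 members (54.7%), against 20.9% of all genes, and 24 members lacked it. The letters searched were CCGGAA or the reverse complement TTCCGG, in windows of 300 bases, 250 before to 50 after each of 60 starts of the 53 genes. A gene counted as carrying the core if any of its windows held it. Of the members with a summit near a start 22 of 37 carried it (59.5%), against 38% of all genes with such a summit. Of the members with no summit near a start 7 of 16 did (43.8%), against 15.1% of all genes without one. The 7 were Cops7a, Cops9, Gps1, Psmc2, Psmc3ip, Psmf1 and Psmg1. Among the members it was in 9 of 16 with summits of both libraries, in 12 of 20 with WT alone and in Psmd13, the 1 with Tle4cKO alone. The windows held matches at 48 distinct positions, of which 38 (79.2%) began within 100 bases before a start or after it. That stretch takes in 100 of the 250 bases before a start and all 50 after it. The overlapping matches on both strands of TTCCGGAA, at Cops2 and Psmd4, are counted as separate positions. The same share was not computed over all genes, so the position of the sites is not a trait shown for the members.

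In all, 10 short motifs were searched on both strands, and windows of genes with more than 1 start can overlap and repeat a site. Counted by window, the ETS core was in 32 of 60 (53.3%; 18.7% of all 21263 windows). The core of the antioxidant response element, TGACNNNGC, to which the NFE2L1 and NFE2L2 factors bind with small Maf proteins, was in 8 windows (13.3%; 13% of all), among them those of Psmb5, Psmb6 and Psmd12. The GC box GGGCGG was in 32 (53.3%; 46.2%), CCAAT in 18 (30%; 38.2%), the interferon motif core GAAANNGAA in 8 (13.3%; 8.15%) and TATAAA in 5 (8.33%; 12.6%). The YY1 motif AAGATGGCG was in 2 windows (3.33%; 1.83%), TTCNNNGAA, bound by STAT factors, in 3 (5%; 7.69%), GGGNNTTCC, an NF-kB motif, in 1 (1.67%; 6.3%) and the cyclic AMP element TGACGTCA in 0 (2.23%). A match shows the letters only, and TTCCGGAA counts as a match on either strand. The median ratio of observed to expected CpG was 0.794 in the members' windows and 0.567 in all.

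The 100 bases before the start are shown for 8 genes, from the RefSeq table (GRCm38.p6) and 5′ to 3′ in the direction of transcription, with CCGGAA and TTCCGG in capitals. Cops2, Psmc1, Psmd6 and Psmd12 had a summit near the start in both libraries and Psmd2 in WT alone, while Cops7a had 3 matches and no summit near its start. The stretches of Psma4 and Sem1, which were among the 10 members with the highest WT scores, hold no match.
Cops2, chr2:125859083-125859182, minus strand: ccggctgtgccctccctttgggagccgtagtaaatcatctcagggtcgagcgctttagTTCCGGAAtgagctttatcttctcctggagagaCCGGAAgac
Psmc1, chr12:100110102-100110201, plus strand: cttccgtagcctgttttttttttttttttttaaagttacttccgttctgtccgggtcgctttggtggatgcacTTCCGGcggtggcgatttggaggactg
Psmd6, chr14:14120946-14121045, minus strand: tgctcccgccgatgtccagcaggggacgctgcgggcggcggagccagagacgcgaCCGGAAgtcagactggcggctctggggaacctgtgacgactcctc
Psmd12, chr11:107479428-107479527, plus strand: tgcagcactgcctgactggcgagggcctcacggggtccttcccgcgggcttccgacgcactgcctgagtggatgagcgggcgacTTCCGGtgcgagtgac
Psmd2, chr16:20651552-20651651, plus strand: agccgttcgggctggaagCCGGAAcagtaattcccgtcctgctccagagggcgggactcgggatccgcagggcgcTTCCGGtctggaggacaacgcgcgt
Cops7a, chr6:124965513-124965612, minus strand: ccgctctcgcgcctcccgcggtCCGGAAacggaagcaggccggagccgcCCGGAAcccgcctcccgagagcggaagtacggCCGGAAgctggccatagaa
Psma4, chr9:54950759-54950858, plus strand: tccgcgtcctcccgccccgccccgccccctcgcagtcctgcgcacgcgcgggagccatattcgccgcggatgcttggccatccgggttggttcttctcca
Sem1, chr6:6578659-6578758, minus strand: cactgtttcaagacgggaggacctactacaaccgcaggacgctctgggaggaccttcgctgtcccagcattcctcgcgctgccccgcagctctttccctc

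The alpha ring of the core particle, whose subunits form the gate of the barrel, had a gene-end summit at 3 of 7 genes in Tle4cKO and at 6 in WT, and a summit near a start at 4 in Tle4cKO and all 7 in WT. Psma4 (chr9:54950781-54958034) scored 4.99 in Tle4cKO and 15.1 in WT, with summits 12 bp apart at the start. Psma2 scored 8.43 in Tle4cKO and 14.0 in WT, and Psma7 4.30 in Tle4cKO and 4.37 in WT. Psma1 (9.77) and Psma5 (4.74) had a WT summit alone. For Psma3 the outer ends miss the start used by the table, and for Psma6 they miss the inner of its 2 starts. Near its start Psma3 had summits of 7.48 in Tle4cKO and 13.5 in WT, 29 bp apart, although its gene-end call rests on another WT summit of 4.80. Psma6 had a WT summit of 13.3 located 207 bp downstream of its inner start and none in Tle4cKO within 28531 bp of the gene.

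The beta rings, which hold the proteolytic sites, had more genes marked in WT than in Tle4cKO, as did all protein-coding genes (22.6% and 6.19%). None of the 4 structural subunit genes had a Tle4cKO summit at its ends, and all 4 had a WT summit: Psmb4 scored 8.62, Psmb1 8.35, Psmb2 7.12 and Psmb3 6.14. Of all genes with a WT gene-end score of 5 to under 10, 30% had a Tle4cKO gene-end summit. Of the 3 constitutive proteases, Psmb7 (trypsin-like) had gene-end summits of 2.38 in Tle4cKO and 6.15 in WT. Psmb5 (chymotrypsin-like) had a WT summit of 11.4, the highest WT score at any member's end without a Tle4cKO summit. The nearest Tle4cKO summit lay 68386 bp from that gene. Psmb6 (caspase-like) had no summit of either library within 10 kb.

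Of the 3 interferon-inducible immunoproteasome genes, 1 had a gene-end summit in Tle4cKO and 1 in WT, where 6.19% and 22.6% of all genes did. Within 10 kb, 1 had a Tle4cKO and 2 a WT summit (11.6% and 39.2% of all genes). So few genes cannot be set apart from these shares. Psmb9 had a WT summit of 4.44 and none in Tle4cKO, 313 bp upstream of its start and within 1 kb of an end of Tap1, which encodes a peptide transporter of antigen presentation. Psmb8 had a Tle4cKO summit of 2.29 at its far end and a WT summit of 4.62 located 570 bp away, 4180 bp (Tle4cKO) and 4750 bp (WT) downstream of the Psmb8 start, between Psmb8 and Tap2. Psmb10, on chromosome 8, had no summit within 10 kb. Its nearest ones were 370179 bp away in Tle4cKO and 35027 bp away in WT. Psma8 of the testis and Psmb11 of the thymus had no gene-end summit, and nor had Psme2b, a copy of Psme2. The WT summit of 11.4 within 10 kb of Psmb11 is that of its neighbour Psmb5.

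The base of the regulatory particle was marked at 4 of 9 genes in Tle4cKO and at 8 of 9 in WT. Among the 6 ATPases, Psmc1 scored 6.00 in Tle4cKO and 5.98 in WT, Psmc3 3.56 in Tle4cKO and 6.62 in WT, and Psmc5 3.24 in Tle4cKO and 5.19 in WT. Psmc4 (5.48) and Psmc6 (8.02) had a WT summit alone, and the nearest summits to Psmc2 were 83651 bp away in Tle4cKO and 83562 bp away in WT. Psmd1, the larger scaffold of the base, scored 7.55 in Tle4cKO and 10.4 in WT. Psmd2, the other scaffold (8.45), and Psmd4, a ubiquitin receptor (6.54), had a WT summit alone.

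The lid was the group with the most Tle4cKO calls. Of its 9 genes, 7 in Tle4cKO and 7 in WT had a gene-end summit, 6 of them in both. Sem1, the small subunit that also binds BRCA2, scored 12.6 in Tle4cKO and 13.5 in WT, 64 bp apart. These scores placed it 10th among the gene ends of the Tle4cKO list and 136th among those of the WT list, which has 4951 marked genes against 1355. Psmd11 scored 4.57 in Tle4cKO and 13.3 in WT, and Psmd12 2.40 in Tle4cKO and 8.92 in WT. Psmd7 scored 4.11 in Tle4cKO and 8.79 in WT, Psmd6 3.78 in Tle4cKO and 7.54 in WT, and Psmd3 2.54 in Tle4cKO and 5.47 in WT. All of these lid genes had the higher number in the longer WT list. Psmd14, the deubiquitinase, had a WT summit alone (4.70) and Psmd8 had none of either library within 10 kb.

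Psmd13, a lid subunit, was the only member with a Tle4cKO summit near its start and no WT summit there. The Tle4cKO summit scored 4.55 and lay 195 bp upstream of the start, inside Sirt3, which encodes a mitochondrial deacetylase, begins beside Psmd13 and is transcribed in the opposite direction. The only WT summit within 10 kb of Psmd13 scored 2.71, 7754 bp upstream. The Tle4cKO score ranked 537th of 1355 marked gene ends, above their median of 4.15, and the WT score was below the median of its list, 4.47.

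**Figure D3:**
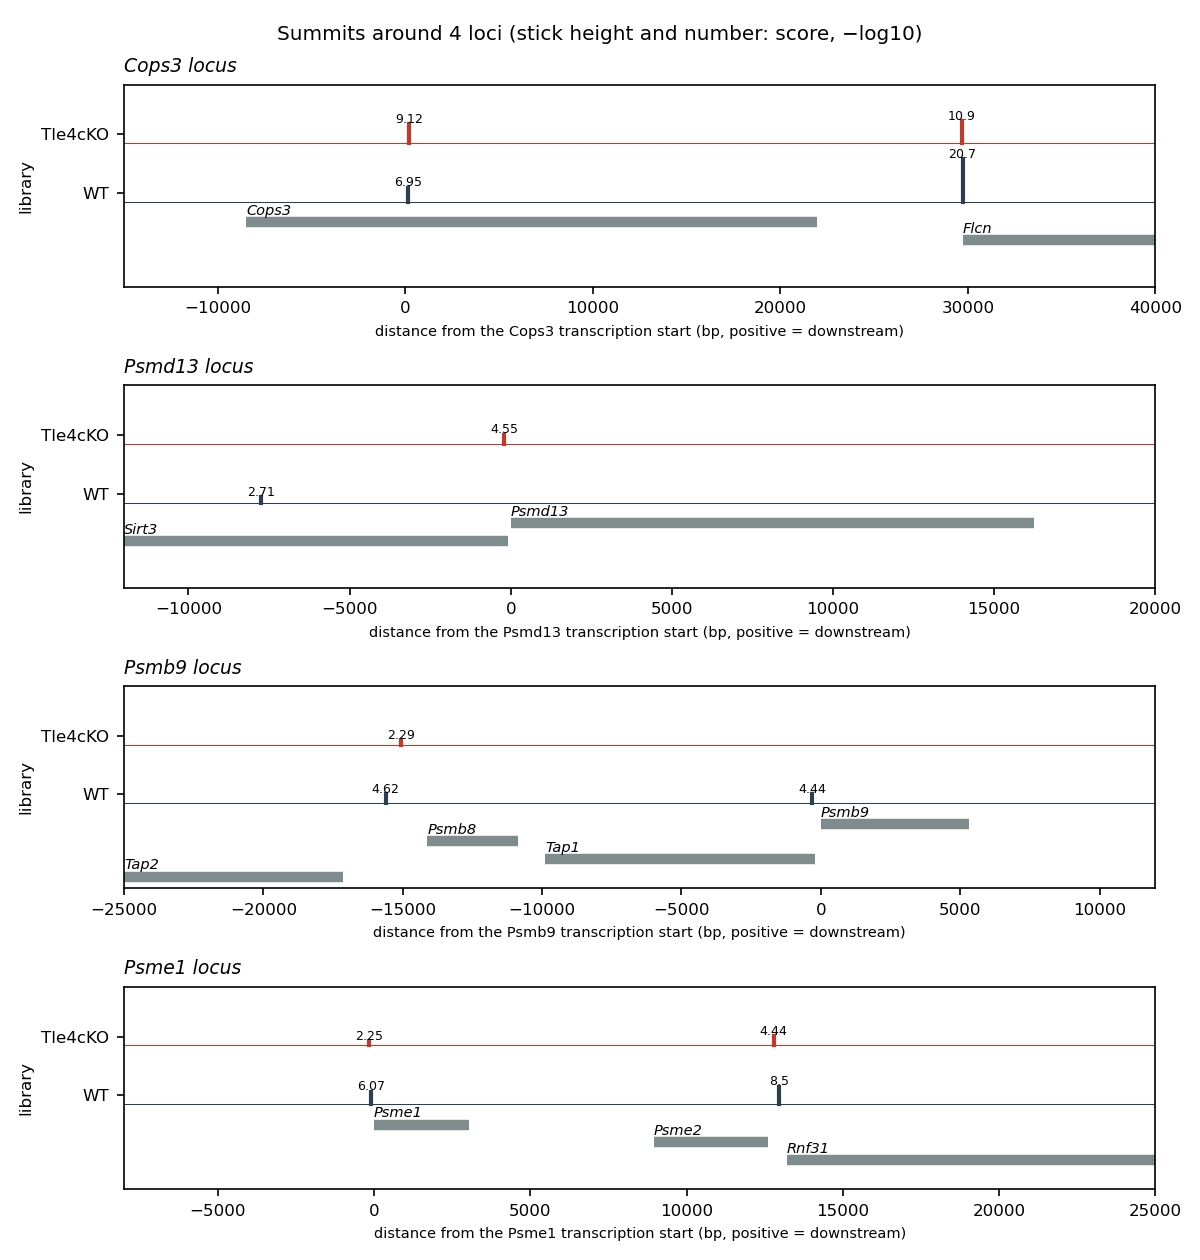
Summits around Cops3, Psmd13, Psmb9 and Psme1, with the Tle4cKO track above the WT track in each panel; the x axis is the distance from the named start in bp, stick height and number give the score (−log10), and grey bars are genes. At Cops3 and Psme1 the libraries share positions, at Psmd13 the Tle4cKO summit of 4.55 has no WT partner, and at Psmb9 the WT summit of 4.44 has no Tle4cKO partner.

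Among the activators, which open the core particle without ATP, the interferon-inducible PA28 genes were marked in both libraries. Psme1 scored 2.25 in Tle4cKO and 6.07 in WT, and Psme2, the neighbouring gene on chromosome 14, 4.44 in Tle4cKO and 8.50 in WT. The Psme2 summits also lay within 1 kb of an end of Rnf31, a subunit of the ligase that makes linear ubiquitin chains. Psme3, the nuclear PA28 gene, had a WT summit alone (9.54), as did Psme4, which encodes PA200 (3.26 and 2.80, 2 WT summits at the same end). Psmf1, which encodes the inhibitor PI31, had none within 10 kb.

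Genes of assembly chaperones had 1 Tle4cKO and 4 WT calls among 7. Psmg2 on chromosome 18 scored 7.45 in Tle4cKO and 13.1 in WT, 49 bp apart, at an end that lies within 1 kb of Cep76. Psmd5 (5.08), Psmg3 (4.06) and Psmd10, which encodes gankyrin (2.07), had a WT summit alone. Psmd9, Psmg1 and Psmg4 had none within 10 kb.

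The COP9 signalosome had 2 Tle4cKO and 5 WT gene-end calls among 10 genes. Cops5, the subunit that cleaves NEDD8 from cullins, had the highest score of all members, 16.9 in Tle4cKO and 24.8 in WT, at 4th and 8th place among marked gene ends of those lists (chr1:10024600-10038159). Cspp1, a gene of the centrosome, has an end within 1 kb of these summits. Cops2 scored 9.69 in Tle4cKO and 7.23 in WT, 229 bp apart, at an end shared with Galk2. Cops3 had no gene-end summit, but both libraries had one near its start, of 9.12 in Tle4cKO and 6.95 in WT, 27 bp apart. The summits of 10.9 and 20.7 that lay 7726 and 7753 bp from Cops3 in Tle4cKO and WT are at an end of Flcn.

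The remaining COP9 genes were marked in WT or not at all. Cops4 (6.80), Cops7b (3.94) and Cops8 (3.13) had a WT gene-end summit alone. Cops6 and Cops7a had a WT summit within 10 kb that was not at their ends (3.74 and 3.29), the first of them at the ends of Mcm7 and Ap4m1. Cops9 and Gps1, another subunit gene, had none within 10 kb. The nearest summits to Gps1 were 326171 bp away in Tle4cKO and 17176 bp away in WT. Among the 20 members with gene-end summits in both libraries, Cops2 and Psmc1 were the only ones with the larger number in Tle4cKO (10%, against 13.4% of the 1225 genes with both).

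In all, 12 members had no summit of either library within 10 kb: Cops9, Gps1, Psma8, Psmb6, Psmb10, Psmc2, Psmd8, Psmd9, Psme2b, Psmf1, Psmg1 and Psmg4. A further pair of genes matched the symbol rule without encoding a subunit. Psme3ip1, which encodes a partner of the PSME3 protein, scored 2.94 in Tle4cKO and 4.86 in WT, and Psmc3ip, a factor of meiotic recombination, had no gene-end summit.

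**Figure D4:**
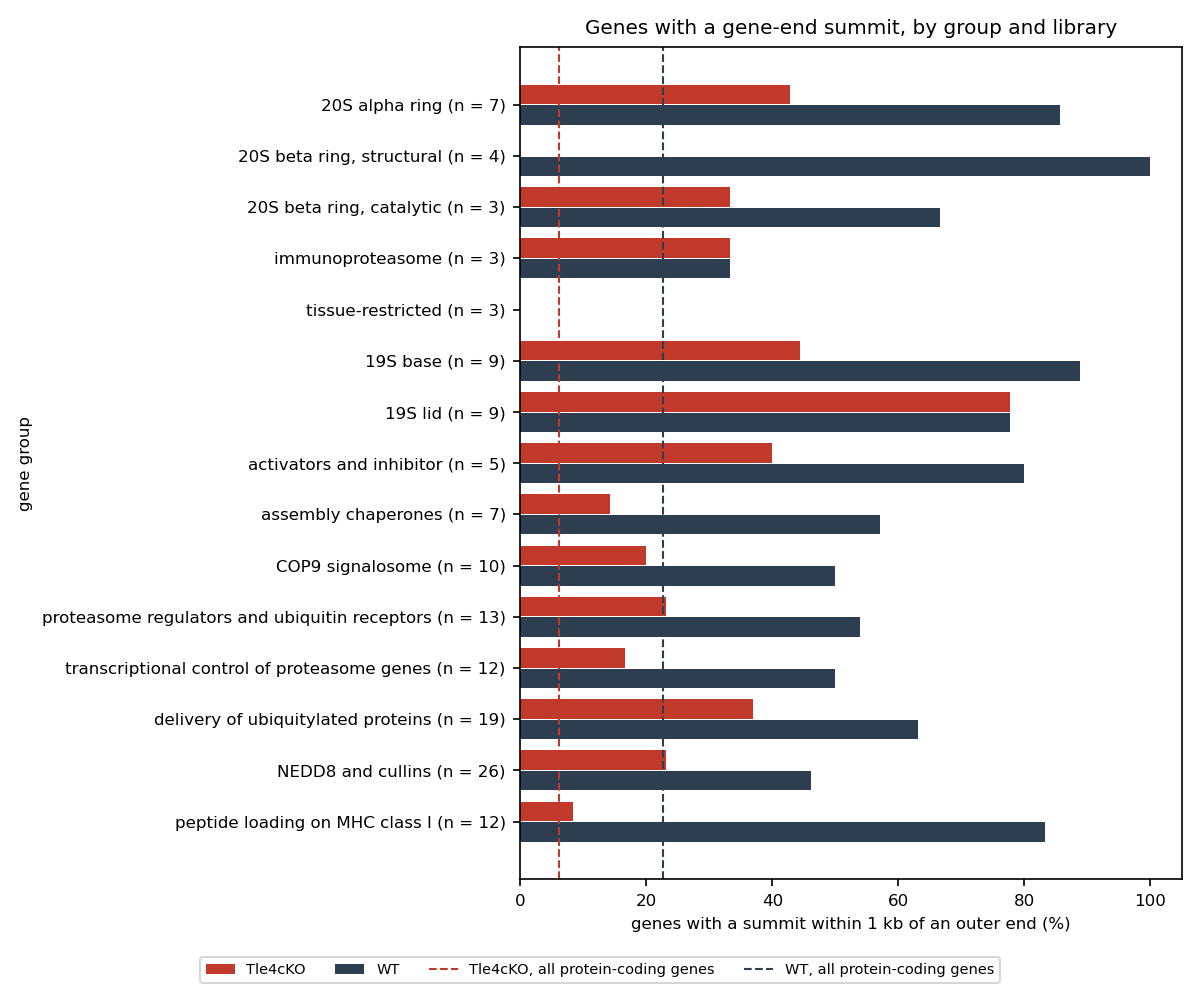
Percent of genes in each group with a summit within 1 kb of an outer end, Tle4cKO above WT, for the member groups by role and 5 lists of related genes; dashed lines are the shares over all protein-coding genes, 6.19% and 22.6%. The lid has equal bars, with 7 of 9 genes in each library, and the structural beta subunits 0 and 4 of 4.

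Some summits lay where gene ends meet, as they did for genes in general. In Tle4cKO 10 of the 22 marked members (45.5%) and in WT 11 of 42 (26.2%) had the end of another protein-coding gene within 1 kb of their highest summit, against 34.4% and 30.9% of all marked genes. Besides those already named, these were Psma2 with Mrpl32, a mitochondrial ribosomal protein gene, Psma4 with Hykk, Psma7 with Ss18l1, Psmc5 with Ftsj3, Psme3ip1 with Rspry1 and, in WT alone, Cops7b with Pde6d. A summit there cannot be given to a single gene. The highest Tle4cKO and WT summits at a member's ends lay between 12 and 549 bp apart with a median of 185.5 bp, against a median of 101 bp over all genes with both. Across the 20 members with both, scores in the libraries had a Spearman correlation of 0.63, and across the 1225 genes 0.40. All points come from the same pair of libraries, and genes with a common end share a summit.

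Members with higher WT scores more often had a Tle4cKO summit too, as did genes in general. Of the 42 members with a WT gene-end summit, 20 (47.6%, 32 to 63.6%) had a Tle4cKO one, where 24.7% of all genes with a WT gene-end summit did. Among members with a WT score under 5, 2 of 11 did (18.2%, 2.28 to 51.8%; 11.5% of all genes in that band). From 5 to under 10, 11 of 23 did (47.8%, 26.8 to 69.4%; 30% of all genes). At 10 or more, 7 of 8 did (87.5%, 47.3 to 99.7%; 67.3% of all genes), and Psmb5 was the exception.

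**Figure D5:**
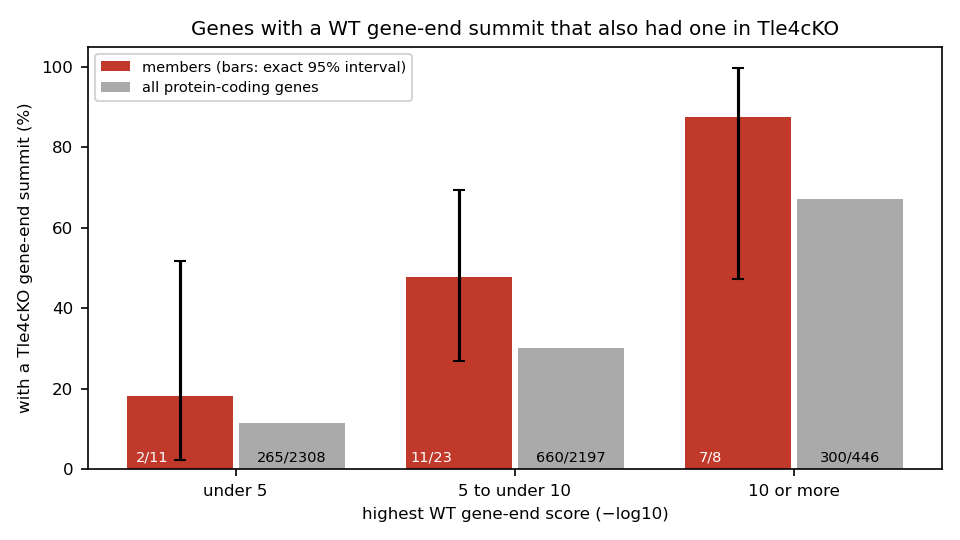
Percent of genes with a WT gene-end summit that also had a Tle4cKO one, by the highest WT gene-end score; red bars are members with exact 95% intervals, grey bars all protein-coding genes, and the numbers give counts. The members' share goes from 2 of 11 in the lowest band to 7 of 8 in the highest.

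Genes that work with the proteasome and the COP9 signalosome were examined in 5 lists, for which the same backgrounds of 6.19% in Tle4cKO and 22.6% in WT apply. Those named are the highest by WT score. Of the 18 listed genes with gene-end summits in both libraries, 2 had the larger number in Tle4cKO, Nploc4 (5.57 in Tle4cKO and 5.32 in WT) and Cand1 (3.84 in Tle4cKO and 2.80 in WT). Of 13 genes listed as regulators and ubiquitin receptors of the proteasome, 3 in Tle4cKO and 7 in WT had a gene-end summit. Aktip, a listed gene for which such a role was not checked, had none. Usp14, a deubiquitinase of the regulatory particle, scored 3.82 in Tle4cKO and 12.6 in WT, Txnl1, a thioredoxin bound to the proteasome, 5.41 in Tle4cKO and 12.3 in WT, and Pomp, which matures the core particle, 2.33 in Tle4cKO and 6.48 in WT. Uchl5, another deubiquitinase (10.5), and Adrm1, the ubiquitin receptor that binds it (5.80), had a WT summit alone. Of 12 genes that control transcription of proteasome genes, 2 in Tle4cKO and 6 in WT were marked. Ngly1, the glycanase that activates NFE2L1, scored 8.68 in Tle4cKO and 14.8 in WT. Foxo4, a forkhead factor, scored 2.34 in Tle4cKO and 5.35 in WT. Nfya, a subunit of the CCAAT-binding NF-Y (7.13), and Keap1, which restrains NFE2L2 (4.62), had a WT summit alone. So did Nfe2l1 itself (4.19), which is named here after its value was seen.

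Of 19 genes that deliver ubiquitylated proteins, 7 in Tle4cKO and 12 in WT had a gene-end summit. The unfoldase gene Vcp scored 6.05 in Tle4cKO and 15.7 in WT, its cofactor Ufd1 4.63 in Tle4cKO and 15.3 in WT, and Faf1, another VCP partner, 4.75 in Tle4cKO and 13.9 in WT. Nsfl1c (7.75) and the shuttle gene Rad23b (7.37) were marked in WT alone and Ubqln4, another shuttle, in Tle4cKO alone (2.12), a gene named after its value was seen. Of 26 genes of the NEDD8 and cullin system, on which the COP9 signalosome acts, 6 in Tle4cKO and 12 in WT were marked. Dcun1d3, a factor of cullin neddylation, scored 4.38 in Tle4cKO and 10.6 in WT, Glmn, a regulator of cullin ligases, 4.69 in Tle4cKO and 9.10 in WT, and Senp8, a NEDD8 protease, 3.35 in Tle4cKO and 8.60 in WT. Cul5 (11.1) and Nedd8 (8.22) had a WT summit alone.

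Of 12 genes that load peptides on MHC class I, 1 in Tle4cKO and 10 in WT had a gene-end summit. Within 10 kb, 4 of them (Tap1, Tap2, Canx and Erap1) had a Tle4cKO summit and all 12 a WT summit. Of all protein-coding genes, 11.6% and 39.2% had such a summit. Tap1 and Tap2 share their Tle4cKO summit, that of 2.29 at the far end of Psmb8, and their highest WT summit (4.62), so they are not separate calls. Erap1, the peptidase that trims these peptides, scored 2.74 in Tle4cKO and 5.31 in WT. The chaperone genes Canx (9.17) and Pdia3 (7.95) had a gene-end summit in WT alone, as did Tap1 by the summit at Psmb9. The median WT score at the marked genes of this list was 4.52, against 5.19 for all marked genes.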

How the data were processed

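H3K27ac CUT&Tag libraries were made from colonic macrophages, with the cells of 4 mice pooled per genotype. The submitters' processing notes name cutadapt 1.14, Bowtie2 2.2.5 and the build mm10. For the peak caller, its settings, any control and read depth, a statement was not given in the sources used here. Each summit's deposited score, set by the authors, was read as −log10 of a p- or q-value, since its lowest values exceed 1.30, which corresponds to 0.05. It tends to be higher in deeper libraries.

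Summits of the autosomes, X and Y entered the counts (python 3.11.15, pandas 2.3.3, scipy 1.17.1). Genes came from a RefSeq table on GRCm38.p6, and starts and strand from its promoter table. A gene end is either outer end of a gene, with a window of 1 kb. Shares have exact Clopper-Pearson 95% intervals. No test between genotypes was made. The members and lists were chosen with earlier results of these data known. Named are all members with a Tle4cKO gene-end summit, the 10 highest in WT, the genes beside each window limit, every member by its group and, per list, up to 3 genes marked in both libraries and 2 in 1, the highest by WT score. Paaf1 was not matched. Alternatives were other windows, score minimums, a shortened WT list and subsets of members. The window functions placed 200 of 200 simulated summits in the right class.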

Additional observations from a re-analysis of the deposited data

Results flagged for a closer look

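Both lists hold summits on the mitochondrial chromosome, which has no histones and enters no comparison: 2 in Tle4cKO and 4 in WT. They are given because they lie outside every comparison. None of the 62 genes lies there.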

How the results depend on the processing

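No paired analysis was possible because each genotype has a single library. Of 136 values under other settings, for 34 results, 90 were taken as the same and 46 as moved, and none had a direction to reverse. A count was the same within 1.5 times, and a share of summits at a start within the main value's 95% interval. Median scores had no error attached, so any change in them after rounding was called moved, however small. Gene-end counts are given here as Tle4cKO, WT, both, WT alone and Tle4cKO alone (22, 42, 20, 22 and 2). A score of at least 5 left 7 in Tle4cKO, 7 in both and 0 in Tle4cKO alone, and a score of at least 10 left 2, 8, 2, 6 and 0. With as many WT summits, by score, as the Tle4cKO list holds, WT had 23, both 13, WT alone 10 and Tle4cKO alone 9. Tle4cKO alone was 1 with windows of 500 bp or 2 kb or with transcription starts only, and 5 when a summit counted for the nearest gene end only. Within 10 kb (24, 50, 24, 26 and 0), the gene itself gave 14 in Tle4cKO and 14 in both, and 5 kb gave 1 in Tle4cKO alone. There a score of at least 5 gave 9 in Tle4cKO and 9 in both, a score of at least 10 gave 3, 12, 3 and 9, and the WT list of equal length gave 29 in WT, 13 in WT alone and 8 in Tle4cKO alone. The median score moved to 4.50 in Tle4cKO at 500 bp and to 6.80 at 500 bp and 6.62 at 2 kb in WT, and the share of WT gene-end summits at a start to 100% at 500 bp.

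On the strand of transcription alone, 21 windows held the ETS core, 19 the GC box, 4 the antioxidant element core and 4 the interferon motif core. Among the related lists, a score of at least 5 left in Tle4cKO 1 proteasome regulator, 1 transcriptional control gene, 2 delivery genes, 1 NEDD8 or cullin gene and 0 peptide loading genes. It left 3 transcriptional control and 4 peptide loading genes in WT. In Tle4cKO a window of 500 bp left 4 delivery and 0 peptide loading genes, and 2 kb gave 2 peptide loading genes. Leaving out Psmc3ip, Psme3ip1 and the tissue-restricted genes, and adding summits at transcription starts to those at outer ends, were chosen after seeing the data; they gave 21 and 24 genes in Tle4cKO and 41 and 44 in WT.

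Unknown depth, a single library per genotype and summit lists without the signal below threshold limit every difference between Tle4cKO and WT: a lower depth and less acetylation cannot be told apart.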

Other observations

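Among 6 annotated pseudogenes named after members, Psmb7-ps2 on the X chromosome had 1 Tle4cKO and 1 WT summit within 10 kb. Neither lay at its ends, and Psma5-ps, Psmb5-ps, Psmb6-ps, Psmb6-ps2 and Psmb7-ps1 had no summit of either library in that window.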
